A study of Mus musculus with 12 samples.

Results

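Terminal end buds of the mouse mammary gland were compared with distal stroma of the same gland on 6 of the 12 two-colour arrays of the series, chosen as all arrays whose Cy5 channel carried RNA of terminal end buds. The remaining 6 arrays carried mature ducts in Cy5 and are used here only to show where a ratio differs between the structures. All tissue was microdissected from mice at 5 weeks of age whose GFP reporter was under control of the beta-actin promoter, active in most cell types, and total RNA was labelled. Distal stroma, the part of the fat pad that holds no epithelium, was the Cy3 channel of every array. Each value is therefore a log ratio of epithelial structure over stroma for 1 probe, read as log2, so that 1 unit is a 2-fold difference. No source used here gives the base of the logarithm, and with natural logarithms every fold would be larger.

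The terminal end bud is the bulbous tip of a growing mammary duct in puberty. Its outer cap cells lie on the basement membrane and give rise to basal and myoepithelial cells, its inner body cells give rise to luminal cells, and both divide while the tip advances into fat. The stroma ahead of it holds adipocytes, fibroblasts, vessels, nerves and blood cells, and sends growth factors to the epithelium, whose own growth depends on ovarian hormones and pituitary growth hormone.

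The labels name no dye swap for these arrays, so a dye bias of a probe stays in its ratio. Stroma was only ever the reference, and nothing in the labels says whether the arrays shared 1 stromal RNA. If they did, the spread between stromal samples is left out of every test. If they did not, that spread is mixed into the one between arrays and cannot be separated from it. Since nothing in the labels ties the arrays to separate mice, the p-values cover only array-to-array spread, which can be technical. In bulk tissue, a lower ratio from fewer cells of a type cannot be told apart from one due to less RNA per cell. The number of arrays, with n = 6 for every gene value unless stated, limits the precision. The arrays are numbered from 1 to 6 by record order, which is also the order of their slide numbers. No label gives that order a further meaning.

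The log ratios of the 6 arrays were correlated, with pairwise Pearson correlations over probes between 0.653 and 0.877. These correlations run across genes and are a description. Array 3 stood apart, with a median correlation of 0.713 to the others against 0.794 to 0.847 for the rest. On array 3, 130 probes lay more than 2 log2 units below all 5 other arrays, against 3 probes on array 4 and 0 on the remaining 4 arrays. Those 130 probes had a median of -3.16 on array 3 and -0.05 on the others. Of the 130, 115 (88.5%) had a neighbour among the 130 within 22 places in the numbering of the probes, against 15.6% of all probes that had one of them that near, so the low values came in runs of that numbering. No label says whether the numbering follows positions on the slide, and the part of position was not tested. With limma, 127 of the 130 were not called and 3 were called lower. The 50 genes with the largest SD over the arrays were all lowest on array 3.

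**Figure D1:**
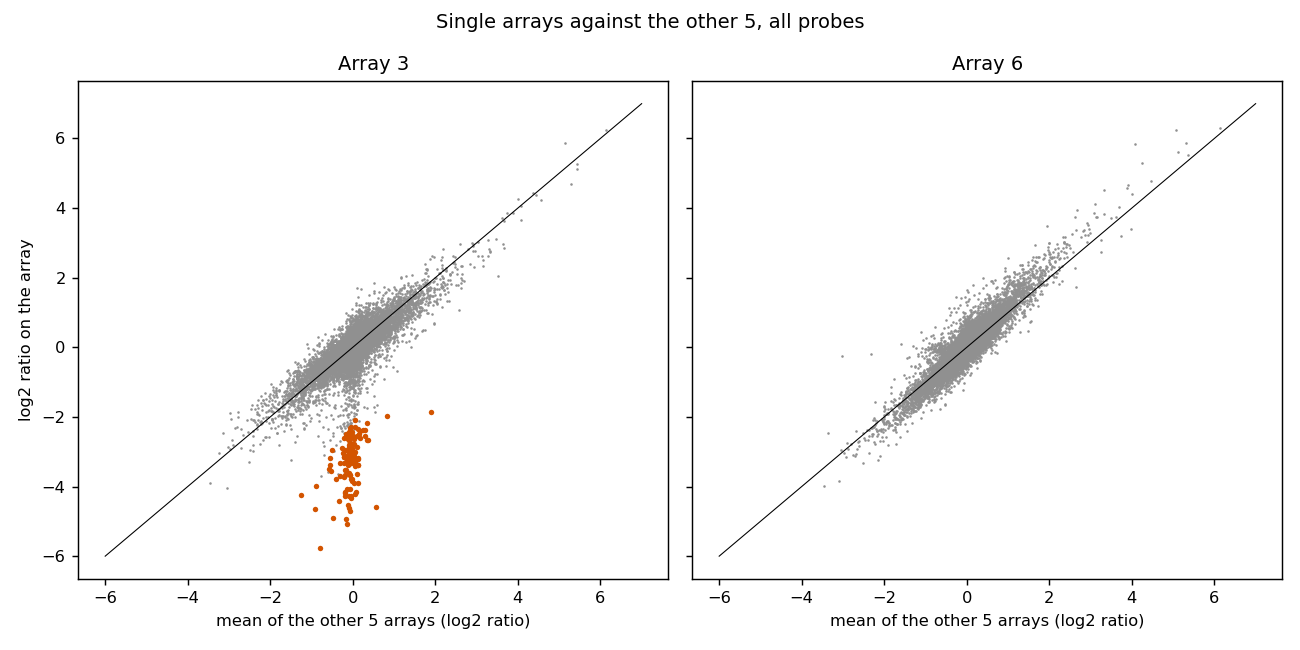
Log2 ratio of each probe on a single array (vertical axis) against its mean over the other 5 terminal end bud arrays (horizontal axis), for array 3 (left) and array 6 (right). The diagonal marks equal values, and orange points are the 130 probes of array 3 that lie more than 2 log2 units below every other array. Array 6 has no such probe.

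Of 17589 probes, 3845 (21.9%) lay above 0 and 3309 (18.8%) below it at an adjusted p of 0.05 by limma, tested against a log ratio of 0. Read as genes, with 1 probe each, 3031 of 12913 (23.5%) were higher and 2595 (20.1%) lower, and the median of all genes was 0.01. Most differences were small, since 82.4% of the called probes were under 2-fold. At least 2-fold differences were called for 560 genes above stroma (4.34%) and 497 below it (3.85%), and at least 8-fold ones for 25 and 4 genes. Without array 3 the counts of probes were 3550 higher and 3116 lower. The genes described from here on were grouped by 51 lists of cell types and functions, with 1486 distinct genes measured, of which 46 stand in more than 1 list. Every count of list members can be read against the shares of all genes above, 23.5% higher and 20.1% lower.

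**Figure D2:**
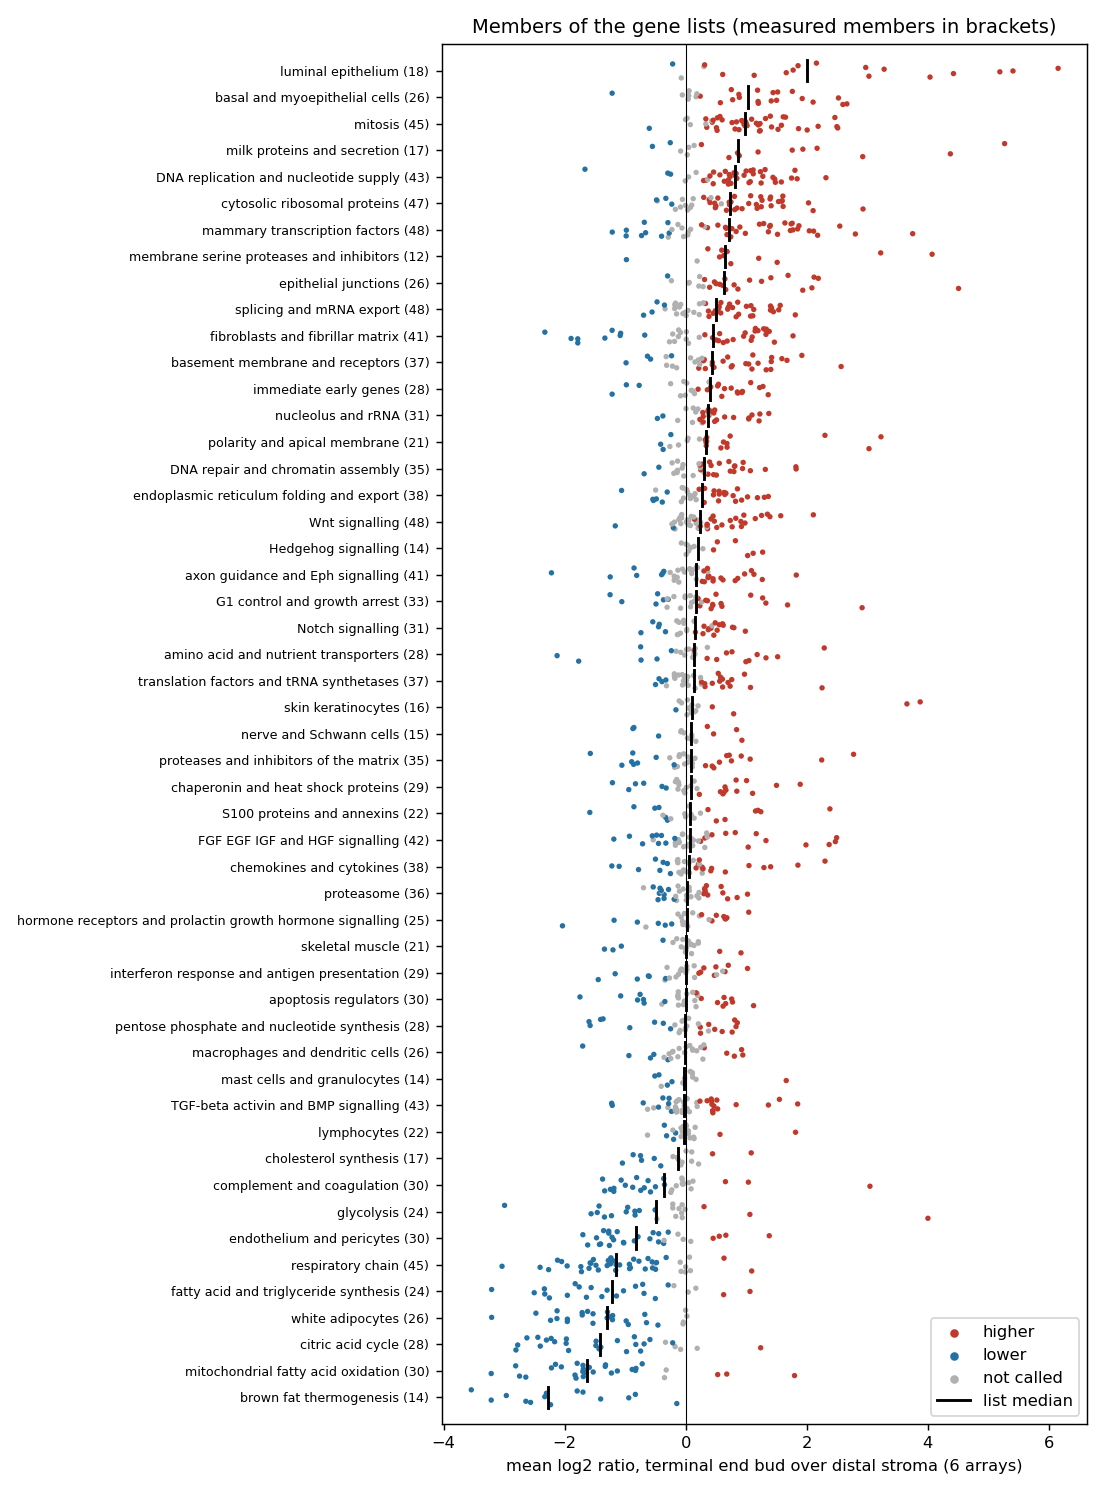
Mean log2 ratio of terminal end bud over distal stroma (horizontal axis) for each measured member of 51 gene lists (rows, ordered by median, number of measured members in brackets). Points are genes, red where called higher, blue where called lower and grey where not called by limma, and the black bar is the list median. Luminal epithelium has the highest median, 2.01, and brown fat thermogenesis the lowest, -2.27.

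The Cy5 tissue carried the markers of its label. The direction of the ratio was read from the labels and from epithelial markers, so the sign of these markers is no separate check. Krt8, a keratin of simple epithelium, ran from 5.82 over 6.27 to 6.31 over the 6 arrays (lowest, median and highest), with a mean of 6.16 (SE 0.08) and a limma adjusted p of 1.63e-08. Its partner Krt18 ran from 4.70 over 5.20 to 5.62, with a mean of 5.19 (SE 0.12). Epcam, the epithelial adhesion molecule, ran from 3.46 over 4.52 to 5.29, with a mean of 4.43 (SE 0.25). All 6 arrays were far above 0 for these 3 genes, and Epcam had the widest spread. Gata3, the transcription factor that maintains luminal cells, ran from 2.81 over 3.93 to 4.40, with a mean of 3.75 (SE 0.19), again with every array above 0.

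Luminal genes had the highest median of the 51 lists. Of 18 measured, 15 were higher and 1 lower, and 13 were higher by at least 2-fold, with a list median of 2.01. Krt19, another luminal keratin, ran from 5.09 over 5.28 to 5.88 with a mean of 5.41 (SE 0.11). The surface glycoprotein Cd24a, used to sort mammary epithelium, was at 4.04 (SE 0.20), Krt7 at 3.28 (SE 0.26) and Cited1, a transcriptional coactivator, at 3.03 (SE 0.24). The receptor tyrosine kinase Kit, which marks luminal progenitors and mast cells, was at 1.66 (SE 0.08). Tfcp2l1 was the member called lower, at -0.22 (SE 0.06). Aldh1a3, an enzyme of retinoic acid synthesis, was not called at -0.07 (SE 0.34), with array 3 at -2.18 and the others above 0. Without array 3 it was called higher, at 0.35 (limma adjusted p = 0.00614).

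**Figure D3:**
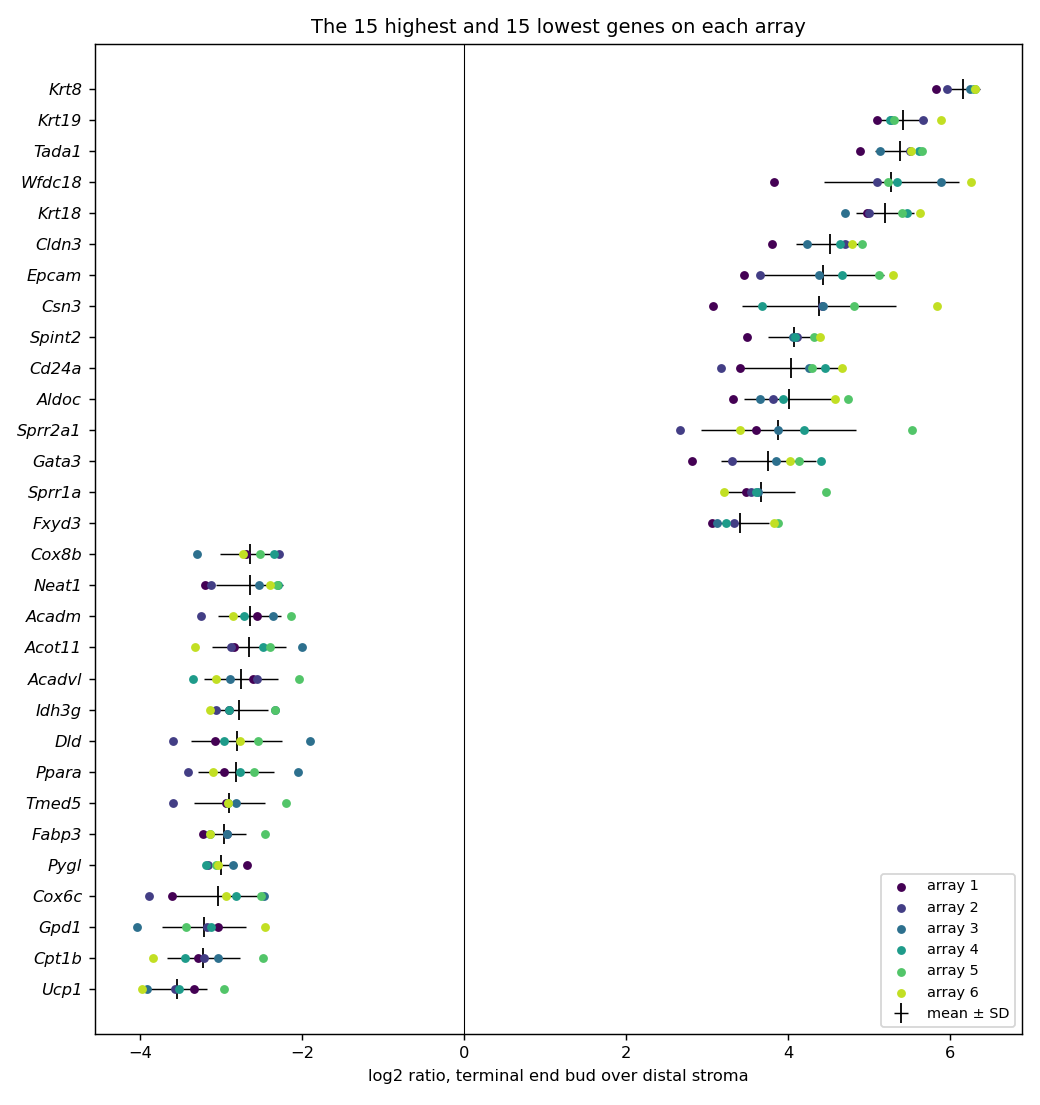
Log2 ratio of terminal end bud over distal stroma (horizontal axis) on each of the 6 arrays for the 15 highest and the 15 lowest called genes with the same sign on every array. Points are arrays, and the marker with its bar is the mean and 1 SD to either side. Krt8 leads at a mean of 6.16 and Ucp1 is lowest at -3.54.

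The third highest ratio, 5.38 (SE 0.11), came from a probe that the platform assigns to Tada1, a subunit of a transcription complex, and that assignment was not checked here. Genes of the epithelial surface followed. Cldn3, a tight junction claudin, ran from 3.80 over 4.67 to 4.91 with a mean of 4.51 (SE 0.14). Of 26 junction genes, 19 were higher and 1 lower, with a median of 0.63. Cldn4 was at 2.09 (SE 0.11), the desmosomal plakophilins Pkp3 and Pkp1 at 2.12 (SE 0.16) and 1.41 (SE 0.08), and Cdh1, the adherens junction cadherin, at 1.94 (SE 0.14). The member called lower was Tjp1, a scaffold of tight junctions, at -0.30 (SE 0.10), a call lost without array 1, 3, 4 or 6 in turn (limma adjusted p from 0.0565 to 0.104).

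Among 21 polarity and apical genes 13 were higher and 3 lower, with a median of 0.34. Rab25, a small GTPase of epithelial recycling, was at 3.23 (SE 0.25), and Ezr and Slc9a3r1, which link the apical membrane to actin, were at 3.03 (SE 0.12) and 2.30 (SE 0.09). Of 12 serine proteases and inhibitors 10 were higher and 1 lower, with a median of 0.66. The inhibitor Spint2 ran from 3.49 over 4.09 to 4.40 with a mean of 4.07 (SE 0.11). The membrane protease St14, matriptase, which it inhibits, was at 3.22 (SE 0.29), and Prss23 was the member called lower, at -0.98 (SE 0.12).

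Basal and myoepithelial genes were also above stroma, with 19 of 26 higher, 1 lower and a median of 1.04. Krt5, the basal keratin, ran from 1.94 over 2.50 to 2.96 with a mean of 2.52 (SE 0.12). Its partner Krt14 was at 1.5 (SE 0.11), and Trp63, the regulator of the basal state, at 1.19 (SE 0.18). The smooth muscle actins Acta2 and Actg2 were at 2.60 (SE 0.19) and 2.66 (SE 0.20). Of the other contractile genes of myoepithelium, the actin-binding proteins Tpm1 and Tagln were higher at 1.76 (SE 0.10) and 1.44 (SE 0.08). Myh11, the smooth muscle myosin, and Mylk, the kinase of its light chain, were not called, at 0.05 (SE 0.09) and -0.06 (SE 0.05). Sparc, a matrix glycoprotein, was the member called lower, at -1.22 (SE 0.16), and the intermediate filament Vim was higher at 0.75 (SE 0.17).

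Of 48 transcription factors of the gland, 30 were higher and 9 lower, with a median of 0.71. Foxa1, which opens chromatin for the oestrogen receptor, ran from 2.20 over 2.58 to 3.74 with a mean of 2.81 (SE 0.21). Sox10, a factor of mammary stem and progenitor cells, was at 2.55 (SE 0.13), and Elf5, which drives the alveolar fate, at 2.18 (SE 0.21). The homeobox genes Irx2 and Irx3 lay close together at 2.11 (SE 0.12) and 2.04 (SE 0.15). Sox4 had a narrow range, from 1.76 over 1.84 to 2.07. Twist1 and Snai1, which drive epithelial to mesenchymal transition, were higher, at 1.64 (SE 0.10) and 1.39 (SE 0.08), while Zeb2, known for the same process, was lower at -0.68 (SE 0.11). The largest falls were Id1, an inhibitor of helix-loop-helix factors, at -1.21 (SE 0.06), the adipogenic factor Cebpa at -0.98 (SE 0.15) and Klf4 at -0.98 (SE 0.07).

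Of 25 genes of hormone signalling, receptors among them, 8 were higher and 6 lower, beside 23.5% and 20.1% of all genes. The vitamin D receptor Vdr was at 1.04 (SE 0.14) and the progesterone receptor Pgr at 0.66 (SE 0.11). Esr1, the oestrogen receptor, ran from -0.26 over -0.04 to 0.38 and was not called, with a mean of 0.03 (SE 0.09). Its arrays lay on both sides of 0. The growth hormone receptor Ghr was on the stromal side on every array, from -2.32 over -2.03 to -1.76, with a mean of -2.04 (SE 0.08), and the glucocorticoid receptor Nr3c1 was at -1.18 (SE 0.07).

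Milk genes were above stroma in these pubertal glands, with 11 of 17 higher, 2 lower and a median of 0.86. Wfdc18, a relative of whey acidic protein, ran from 3.82 over 5.29 to 6.26 with a mean of 5.27 (SE 0.27). The caseins Csn3 and Csn1s1 were at 4.38 (SE 0.31) and 2.93 (SE 0.09). Csn3 varied more between arrays, from 3.08 over 4.43 to 5.83, and its other probe gave a mean of 0.22. For most of these genes the ratio was larger in ducts. Of the 17, 10 had a lower ratio in terminal end buds than in ducts and 1 a higher one in the fit over 12 arrays, where 1176 of all genes lay above ducts (9.11%) and 1455 below (11.3%). Csn1s2a was at 0.89 (SE 0.24) in terminal end buds and 4.85 (SE 0.29) in ducts, a difference of -3.96 (SE 0.41) with a limma adjusted p of 2.33e-05. Without array 3 the ratio of Csn1s2a in terminal end buds was 0.82 and was not called (adjusted p = 0.0509). The same difference was -2.78 (SE 0.32) for Csn1s1 and -1.87 (SE 0.36) for Csn3, both past the threshold, and that of Csn3 was -2.91 at a common median absolute deviation of the arrays.

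The cell cycle was the second large group on the epithelial side. Of 45 genes of mitosis 39 were higher and 1 lower, with a median of 0.98. Cdc20, which activates the ligase that ends metaphase, ran from 2.0 over 2.55 to 3.17 with a mean of 2.51 (SE 0.15). Cdk1, the kinase that drives entry into mitosis, ran from 1.56 over 2.49 to 3.31 with a mean of 2.50 (SE 0.20). All arrays were above 1.5 for both genes. Cenpa, the centromere histone, was at 2.19 (SE 0.15), Birc5, survivin, at 2.01 (SE 0.18) and the cyclin Ccna2 at 1.86 (SE 0.24). Mki67, the usual proliferation marker, had a smaller ratio of 0.99 (SE 0.16), and Ccnb2 was called lower than stroma at -0.60 (SE 0.13).

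Replication genes moved the same way, with 36 of 43 higher, 3 lower and a median of 0.82. Mcm6, a subunit of the replicative helicase, ran from 1.58 over 2.33 to 2.86 with a mean of 2.32 (SE 0.16). Further subunits Mcm3, Mcm5 and Mcm2 were at 1.84 (SE 0.14), 1.75 (SE 0.22) and 1.47 (SE 0.10). The nucleotide enzymes Rrm2 and Tyms were at 1.81 (SE 0.08) and 1.31 (SE 0.09), and the polymerase clamp Pcna at 1.27 (SE 0.10). Uhrf1, which maintains DNA methylation after replication, went against the list at -1.67 (SE 0.10). In ducts the medians were 0.20 for mitosis and 0.22 for replication. Against ducts, 28 of the 45 mitosis genes had a higher ratio in terminal end buds and 0 a lower one, and 29 of the 43 replication genes a higher one and 2 a lower one. The difference was 2.13 (SE 0.20) for Cdc20 and 1.42 (SE 0.28) for Mcm6. With the arrays quantile normalized, 21 genes of each list had a higher ratio than in ducts, and with a common median absolute deviation 23 and 24.

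The promoters of these genes are shown because the members moved together. Promoter windows from RefSeq (GRCm38.p6), 300 bases from 250 before to 50 after the first start site, were searched on both strands for the CCAAT box (reverse complement ATTGG), which binds NF-Y, for TTTGAA (reverse complement TTCAAA), the core of the cell cycle homology region, and for TTTNNCGC (reverse complement GCGNNAAA), the core of an E2F site. CCAAT stood in 24 of the 32 promoters found for the 39 higher mitosis genes (75%), in 19 of 30 found for the 36 higher replication genes (63.3%) in 37.9% of all 27025 promoters and in 38.3% of the 10292 promoters of genes on the array. TTTGAA stood in 24 of the mitosis promoters (75%), 5 of the replication promoters (16.7%), 18.1% of all and 13.2% of those on the array. The E2F core stood in 3 of the mitosis promoters (9.38%), 9 of the replication promoters (30%), 5.27% of all and 7.25% of those on the array. Below are the 200 bases before the start site of Cdc20 (chr4:118437344-118437543, minus strand), Cdk1 (chr10:69352913-69353112, minus strand) and Mcm6 (chr1:128359706-128359905, minus strand), each along its gene's strand with matches in capitals; Cdk1 and Mcm6 were chosen after their values were seen.
Cdc20: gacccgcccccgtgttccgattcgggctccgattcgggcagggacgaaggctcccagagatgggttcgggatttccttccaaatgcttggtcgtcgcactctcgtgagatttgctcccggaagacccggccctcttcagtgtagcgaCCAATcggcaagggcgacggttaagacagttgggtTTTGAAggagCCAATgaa
Cdk1: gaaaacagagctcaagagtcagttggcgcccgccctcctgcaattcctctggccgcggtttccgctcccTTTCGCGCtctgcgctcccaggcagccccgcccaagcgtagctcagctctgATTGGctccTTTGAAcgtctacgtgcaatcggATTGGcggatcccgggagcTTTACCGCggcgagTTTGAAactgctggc
Mcm6: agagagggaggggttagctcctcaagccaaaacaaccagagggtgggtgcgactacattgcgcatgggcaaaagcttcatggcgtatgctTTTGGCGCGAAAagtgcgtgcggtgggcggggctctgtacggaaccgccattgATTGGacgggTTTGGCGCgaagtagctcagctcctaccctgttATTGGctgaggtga
In Cdc20 a TTTGAA lies between a pair of CCAAT boxes close to the start, Cdk1 holds all 3 motifs, and Mcm6 holds CCAAT and E2F cores, of which 2 overlap on opposite strands. A match is a description of letters and not of binding. A grainyhead-like motif and a nuclear receptor motif (DR1) were also searched. The grainyhead-like motif stood in 1 of 11 promoters of higher luminal genes and 0 of 11 of higher junction genes (1.91% on the array). DR1 stood in 0 of 20 promoters of lower fatty acid oxidation genes and 0 of 8 of lower brown fat genes. With DR1 in 5 of the 10292 promoters on the array, its absence decides nothing. The same windows of Krt8, Ucp1 and Ppara held 0 matches of any motif searched. In the same windows of the 20 promoters found for the 25 lower fatty acid oxidation genes, CCAAT stood in 35%.

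Regulators of the first gap phase were mixed, with 15 of 33 higher and 6 lower. Ccnd1, cyclin D1, ran from 2.39 over 2.96 to 3.48 with a mean of 2.92 (SE 0.14), and its kinase Cdk4 was at 1.68 (SE 0.08). Rb1, the retinoblastoma protein that these kinases phosphorylate, lay below 0 on every array, from -1.48 over -1.21 to -1.07, with a mean of -1.25 (SE 0.07). Of the inhibitors, Cdkn1c was higher at 1.32 (SE 0.12), while Cdkn2c was lower at -1.06 (SE 0.13). Of 35 repair genes 20 were higher and 2 lower, with a median of 0.31. Apoptosis genes had a median of 0.00, with 9 of 30 higher and 7 lower, beside 23.5% and 20.1% of all genes. The death-promoting Bak1 and Bcl2l11 were at 1.12 (SE 0.09) and 0.66 (SE 0.07), and cytochrome c, Cycs, was at -1.75 (SE 0.22).

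Genes that build the cell's machinery were raised as well. Of 47 ribosomal protein genes 33 were higher and 3 lower, with a median of 0.73. Rpl13a ran from 2.24 over 2.89 to 3.44 with a mean of 2.93 (SE 0.15), and Rps6 was at 1.61 (SE 0.15). Probes of such genes can also bind near-identical pseudogene transcripts, which leaves single members uncertain. In the nucleolus 21 of 31 genes were higher and 2 lower, with the ribosome assembly proteins Npm1 at 1.23 (SE 0.17), Fbl at 1.21 (SE 0.07) and Nop56 at 1.10 (SE 0.08). Of 48 splicing genes 29 were higher and 4 lower, led by the RNA binding protein Hnrnpab at 1.81 (SE 0.10) and the nuclear transport GTPase Ran at 1.54 (SE 0.10).

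Secretory genes of the endoplasmic reticulum were higher in 20 of 38 and lower in 6, with the disulfide isomerase P4hb at 1.37 (SE 0.14) and the chaperone Hyou1 at 1.19 (SE 0.10). Among chaperones the cytosolic Hspa8 was at 1.89 (SE 0.24) and the chaperonin subunit Cct3 at 1.11 (SE 0.08), while the mitochondrial Hspd1 and Hspa9 were lower at -1.21 (SE 0.10) and -0.83 (SE 0.16). Of 28 nutrient transporters 11 were higher and 6 lower. Slc7a5, which imports large neutral amino acids, ran from 1.93 over 2.30 to 2.70 with a mean of 2.29 (SE 0.11), and the ubiquitous glucose transporter Slc2a1 was at 1.52 (SE 0.07). The insulin-regulated glucose transporter Slc2a4, of fat and muscle, lay on the other side on every array, from -2.68 over -2.13 to -1.60, with a mean of -2.13 (SE 0.16).

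Brown fat genes formed the lowest list, with all 14 measured lower, 0 higher by limma (0 also at an unadjusted p under 0.05), and a median of -2.27. Ucp1, the uncoupling protein of brown adipocytes, ran from -3.98 over -3.54 to -2.96 with a mean of -3.54 (SE 0.13). The fatty acid carrier Fabp3 was at -2.96 (SE 0.10), the lipid droplet protein Cidea at -2.23 (SE 0.09) and the deiodinase Dio2 at -1.41 (SE 0.23). Cox7a1, the muscle and brown fat form of a cytochrome oxidase subunit, ran from -3.58 over -2.83 to -0.25: array 6 lay at -0.25, away from the others. These markers lie on the stromal side together with the metabolic genes described next, and their part in those ratios was not tested.

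White adipocyte genes were lower in 22 of 26 and higher in 0 (0 also at an unadjusted p under 0.05 by limma), with a median of -1.30. Fabp4, the fatty acid carrier of adipocytes, ran from -2.78 over -2.09 to -1.58 with a mean of -2.13 (SE 0.18). Pparg, the regulator of adipocyte fate, was at -1.71 (SE 0.08), Cd36, a fatty acid transporter, at -1.96 (SE 0.12) and the hormone gene Lep at -1.25 (SE 0.15). Adipoq, another adipocyte hormone, was closer to 0 at -0.46 (SE 0.14). Its call was lost without array 1, 3 or 4 in turn (limma adjusted p from 0.0508 to 0.0757), and without array 5 its mean was -0.31. Lipe, hormone-sensitive lipase, and the carbonic anhydrase Car3 were not called, at 0.02 (SE 0.07) and -0.04 (SE 0.06), though the other probe of Lipe gave -1.54 and the mean of both probes of Car3 was called at -1.0.

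Of 30 genes of fatty acid oxidation 25 were lower and 3 higher, with a median of -1.63. Cpt1b, which admits fatty acids into mitochondria, ran from -3.83 over -3.24 to -2.49 with a mean of -3.21 (SE 0.15). Its regulator Ppara ran from -3.40 over -2.86 to -2.05 with a mean of -2.81 (SE 0.16). The dehydrogenases Acadvl and Acadm were at -2.75 (SE 0.15) and -2.64 (SE 0.13). All arrays were below -2 for Cpt1b and Ppara. The exceptions were Acot1, a thioesterase, at 1.80 (SE 0.18), and Cpt1a, the form of Cpt1b in liver and many other tissues, at 0.68 (SE 0.09).

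In the tricarboxylic acid cycle 23 of 28 genes were lower and 1 higher, with a median of -1.42. The lipoamide dehydrogenase Dld was at -2.81 (SE 0.19), and the isocitrate dehydrogenase subunits Idh3g and Idh3a at -2.78 (SE 0.12) and -2.40 (SE 0.15). Got2, the mitochondrial aspartate aminotransferase, was the member called higher, at 1.24 (SE 0.07). Of 45 respiratory chain genes 36 were lower and 2 higher, with a median of -1.15. Cox6c ran from -3.89 over -2.87 to -2.47 with a mean of -3.04 (SE 0.19), and Ndufs1, of the first complex, was at -2.12 (SE 0.12). Atp5g1, of the ATP synthase, went the other way at 1.09 (SE 0.09).

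Fatty acid and triglyceride synthesis followed, with 19 of 24 genes lower and 2 higher. Gpd1, which makes the glycerol backbone, ran from -4.04 over -3.15 to -2.45 with a mean of -3.21 (SE 0.17). The elongase Elovl6 was at -2.50 (SE 0.11), and Fasn, the fatty acid synthase, ran wider, from -2.11 over -0.99 to -0.02, and its call was lost without array 1, 3, 4 or 5 in turn (limma adjusted p from 0.0513 to 0.0677). In glycolysis 12 of 24 genes were lower and 3 higher, and the isoforms split. Aldoc, an aldolase, ran from 3.31 over 3.87 to 4.74 with a mean of 4.0 (SE 0.18), and Hk1, the common hexokinase, was at 1.06 (SE 0.09). Hk2, the hexokinase of insulin-responsive tissue, was at -1.56 (SE 0.07), and Pygl, a glycogen phosphorylase, at -2.99 (SE 0.08).

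Vessel genes were lower in 22 of 30 and higher in 4, with a median of -0.82. Pecam1, the endothelial adhesion molecule, ran from -2.17 over -1.64 to -1.38 with a mean of -1.70 (SE 0.10). The vascular growth factor receptor Kdr was at -1.47 (SE 0.07), the cadherin Cdh5 at -1.41 (SE 0.07) and the water channel Aqp1 at -1.62 (SE 0.09). Pdgfrb, the receptor of pericytes and fibroblasts, was higher instead and had a narrow range, from 1.32 over 1.38 to 1.46, with a mean of 1.38 (SE 0.05).

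Blood cell genes lay near 0 as lists. Of 26 macrophage genes 5 were higher and 5 lower, beside 23.5% and 20.1% of all genes, with a median of 0.00. The mannose receptor Mrc1 and the scavenger receptor Cd163, both of tissue-resident macrophages, were at -1.70 (SE 0.13) and -0.94 (SE 0.19), while the antigen presentation genes Cd74 and H2-Ab1 were at 0.94 (SE 0.15) and 0.92 (SE 0.13). Of 22 lymphocyte genes 2 were higher and 4 lower. Cd79b, of the B cell receptor, was at 1.82 (SE 0.12), and the T cell gene Cd3e was not called at 0.13 (SE 0.06).

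Markers of other tissues were sparse. Of 21 skeletal muscle genes 2 were higher and 4 lower, with a median of 0.01, and Acta1 was not called at 0.10 (SE 0.07). Of 15 nerve and Schwann cell genes 4 were higher and 3 lower, and of 16 skin genes 4 were higher and 1 lower. The skin list held a pair of large values, Sprr1a, which ran from 3.21 over 3.57 to 4.47, and Sprr2a1, which ran from 2.66 over 3.74 to 5.52, both envelope proteins of squamous epithelium. The defining skin genes Krt1, Lor, Flg and Ivl were not called, between 0.09 and 0.17, except that Krt1 was called at 0.20 without array 3 (limma adjusted p = 0.0335). The difference of Sprr1a from ducts was 2.88 (SE 0.26).

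Fibroblast and interstitial matrix genes split, with 22 of 41 higher and 9 lower, and a median of 0.45. Fn1, fibronectin, was at 1.77 (SE 0.09) and Col1a1, of the main fibrillar collagen, ran from 0.46 over 1.43 to 2.39 with a mean of 1.47 (SE 0.22). Col1a2, the other chain of that collagen, and the fibrillar collagen Col3a1 were not called, at -0.27 (SE 0.26) and -0.185 (SE 0.125). Thy1, a fibroblast surface glycoprotein, was at 1.29 (SE 0.15), Tnc, tenascin, at 1.15 (SE 0.21) and Postn, periostin, at 1.15 (SE 0.11). On the stromal side Ogn, a small proteoglycan, ran from -2.77 over -2.41 to -1.58 with a mean of -2.33 (SE 0.14), and Dpt, dermatopontin, and Dpp4, a surface peptidase, were at -1.90 (SE 0.17) and -1.78 (SE 0.12). Which cells of the dissected structures carried the higher matrix genes was not tested.

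Basement membrane and adhesion genes were higher in 24 of 37 and lower in 4, with a median of 0.44. Col7a1, the anchoring fibril collagen, was at 2.57 (SE 0.19), the laminin chains Lama1, Lama5 and Lamb3 at 1.67 (SE 0.21), 1.59 (SE 0.14) and 1.42 (SE 0.14), and the hemidesmosome genes Itgb4 and Col17a1 at 1.41 (SE 0.14) and 1.41 (SE 0.14). Of 35 matrix proteases and inhibitors 11 were higher and 8 lower, beside 23.5% and 20.1% of all genes. Timp1, an inhibitor of metalloproteinases, ran from 2.36 over 2.67 to 3.37 with a mean of 2.77 (SE 0.14). Mmp14, the membrane metalloproteinase that clears collagen ahead of invading cells, ran from 1.90 over 2.06 to 3.15 with a mean of 2.25 (SE 0.16). Timp3 was on the other side at -1.58 (SE 0.09).

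Of 42 genes of FGF, EGF and IGF signalling 12 were higher and 9 lower, beside 23.5% and 20.1% of all genes. Fgf10, the mesenchymal ligand that mammary outgrowth requires, was at -0.71 (SE 0.09), and its receptor Fgfr2 ran from 2.0 over 2.43 to 3.02 with a mean of 2.47 (SE 0.14). The FGF target Etv5 ran from 2.04 over 2.27 to 2.76 with a mean of 2.37 (SE 0.11), Etv4 was at 1.99 (SE 0.17), and the feedback inhibitors Spry1 and Dusp6 were at 1.17 (SE 0.14) and 1.03 (SE 0.11). Igf1, which mediates growth hormone in the gland, was below 0 on every array, from -1.36 over -1.24 to -0.81, with a mean of -1.19 (SE 0.08), and its receptor Igf1r was not called at 0.10 (SE 0.09). The binding protein Igfbp2 was at 2.50 (SE 0.13).

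Wnt genes were higher in 24 of 48 and lower in 2. The ligands Wnt6, Wnt4, Wnt2, Wnt7b and Wnt5a were at 2.11 (SE 0.12), 1.57 (SE 0.13), 1.39 (SE 0.09), 1.35 (SE 0.21) and 1.25 (SE 0.10), and the coreceptor Lrp5 was at 0.98 (SE 0.10). Fzd4, a receptor with a role in vessels, was the largest fall at -1.16 (SE 0.08). Of 43 TGF-beta family genes 15 were higher and 8 lower, with the activin subunit Inhbb at 1.85 (SE 0.11), Tgfb3 at 1.55 (SE 0.08) and the latency protein Ltbp2 at -1.22 (SE 0.18). Notch genes were higher in 15 of 31 and lower in 5, with the ligand Jag2 at 0.80 (SE 0.08) and the target Hes1 at 0.99 (SE 0.08). In Hedgehog signalling 6 of 14 were higher and 0 lower by limma (0 also at an unadjusted p under 0.05), with the ligand Dhh at 1.11 (SE 0.14), the coreceptor Boc at 1.02 (SE 0.09), and the targets Ptch1 and Gli1, neither called, at 0.01 (SE 0.07) and 0.05 (SE 0.08).

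Axon guidance genes, which also guide branching, were higher in 18 of 41 and lower in 7. The semaphorin receptor Plxnb2 was at 1.83 (SE 0.12), the ephrin receptor Epha2 at 1.27 (SE 0.17) and the Slit receptor Robo1 at 0.97 (SE 0.11). Sema3c, a secreted semaphorin, ran from -2.41 over -2.25 to -1.99 with a mean of -2.22 (SE 0.07), and its other probe gave -0.70. The netrin Ntn1, a factor of cap cell adhesion, was at 0.39 (SE 0.07). Immediate early genes, often induced while tissue is handled, were higher in 16 of 28 and lower in 3, with Junb at 1.28 (SE 0.14), Fos at 0.94 (SE 0.19) and Dusp1 at -1.22 (SE 0.06), and the part of handling was not tested.

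**Figure D4:**
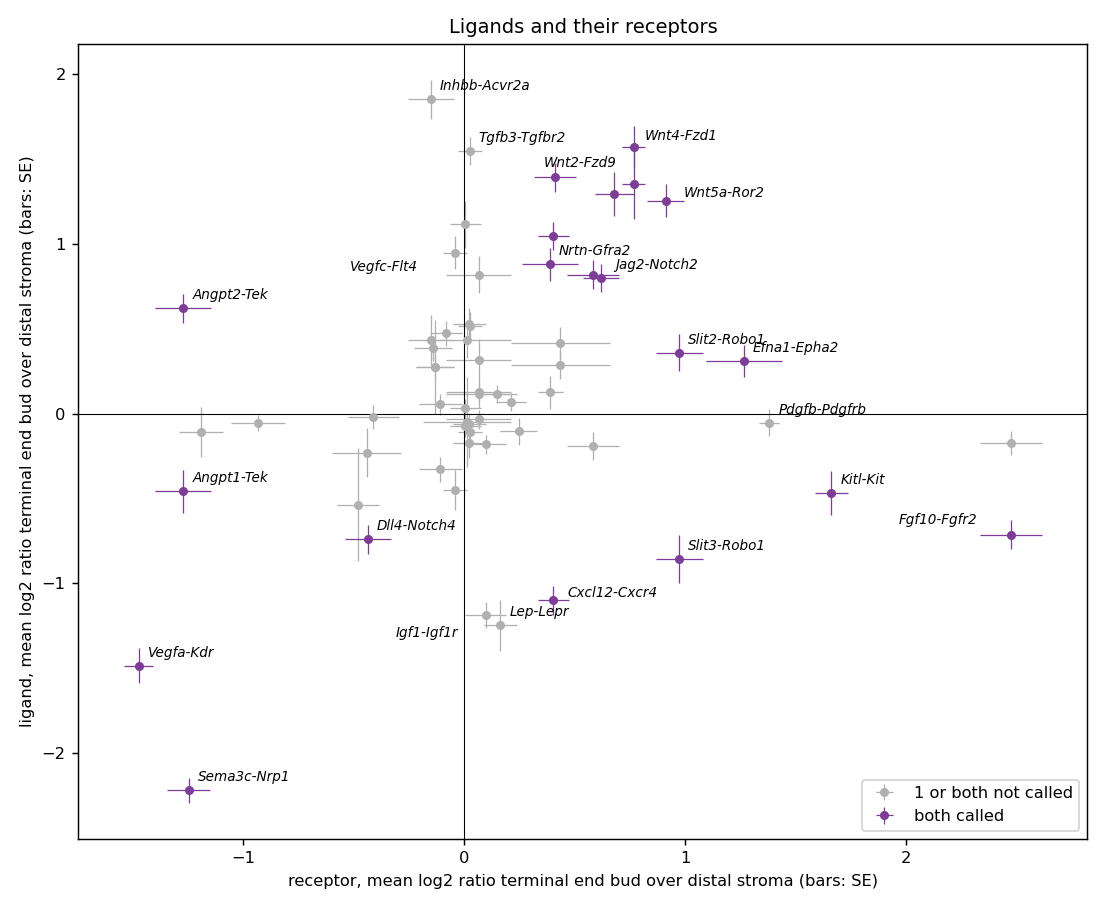
Mean log2 ratio of a ligand (vertical axis) against that of its receptor (horizontal axis) for 63 ligand and receptor pairs, with bars of 1 SE of the fit. Purple points are pairs in which both genes were called by limma, lines mark 0, and names stand at some of the outlying pairs. Fgf10 with Fgfr2 lies to the lower right, with the ligand on the stromal and the receptor on the epithelial side.

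Ligands and receptors were set side by side for 63 textbook pairs with both genes measured. In 11 pairs both were higher and in 4 both were lower. Of all genes 23.5% were called higher and 20.1% lower. The 63 pairs held 41 distinct receptors, so some receptors count more than once, and no pair was tested. The 4 lower pairs were Vegfa and Kdr, Angpt1 and Tek, Dll4 and Notch4, and Sema3c and Nrp1, most of which act in vessels, with Vegfa at -1.49 (SE 0.10) and Tek at -1.27 (SE 0.13). In 4 pairs the ligand was lower and the receptor higher: Fgf10 and Fgfr2, Kitl and Kit, Cxcl12 and Cxcr4, and Slit3 and Robo1. Of these ligands Kitl was at -0.47 (SE 0.13), a call lost without array 1, 4 or 6 in turn (limma adjusted p from 0.051 to 0.059), the chemokine Cxcl12 at -1.10 (SE 0.09) and Slit3 at -0.85 (SE 0.14), and Cxcr4 was at 0.40 (SE 0.07). In 1 pair, Angpt2 and Tek, the ligand was higher and the receptor lower. Pairs in which both were higher included Wnt5a and Ror2, with Ror2 at 0.91 (SE 0.09), and Jag2 and Notch2, with Notch2 at 0.62 (SE 0.08). In 14 pairs neither gene was called.

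Cytokine and complement genes differed. Of 38 chemokines and cytokines 13 were higher and 8 lower, with the alarmin Il33 at 2.30 (SE 0.18), Cxcl15 at 1.85 (SE 0.34) and the lymphoid chemokine Cxcl13 at -1.22 (SE 0.18). Of 30 complement and acute phase genes 16 were lower and 3 higher, with C1s1 and C4b at -1.34 (SE 0.15) and -1.24 (SE 0.23). Clu, clusterin, was the large exception at 3.05 (SE 0.15). Interferon genes had a median of 0.00, with 8 of 29 higher and 6 lower, beside 23.5% and 20.1% of all genes. Array 5 stood apart for them. Its list median was -0.65, against -0.03 to 0.32 on the other arrays. Array 5 was the lowest of the 6 for 20 of the 29 genes (69.0%) and for 15% of all genes. The ubiquitin-like Isg15 was at -1.0 on array 5 and between 0.20 and 1.72 on the others, and was not called.

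**Figure D5:**
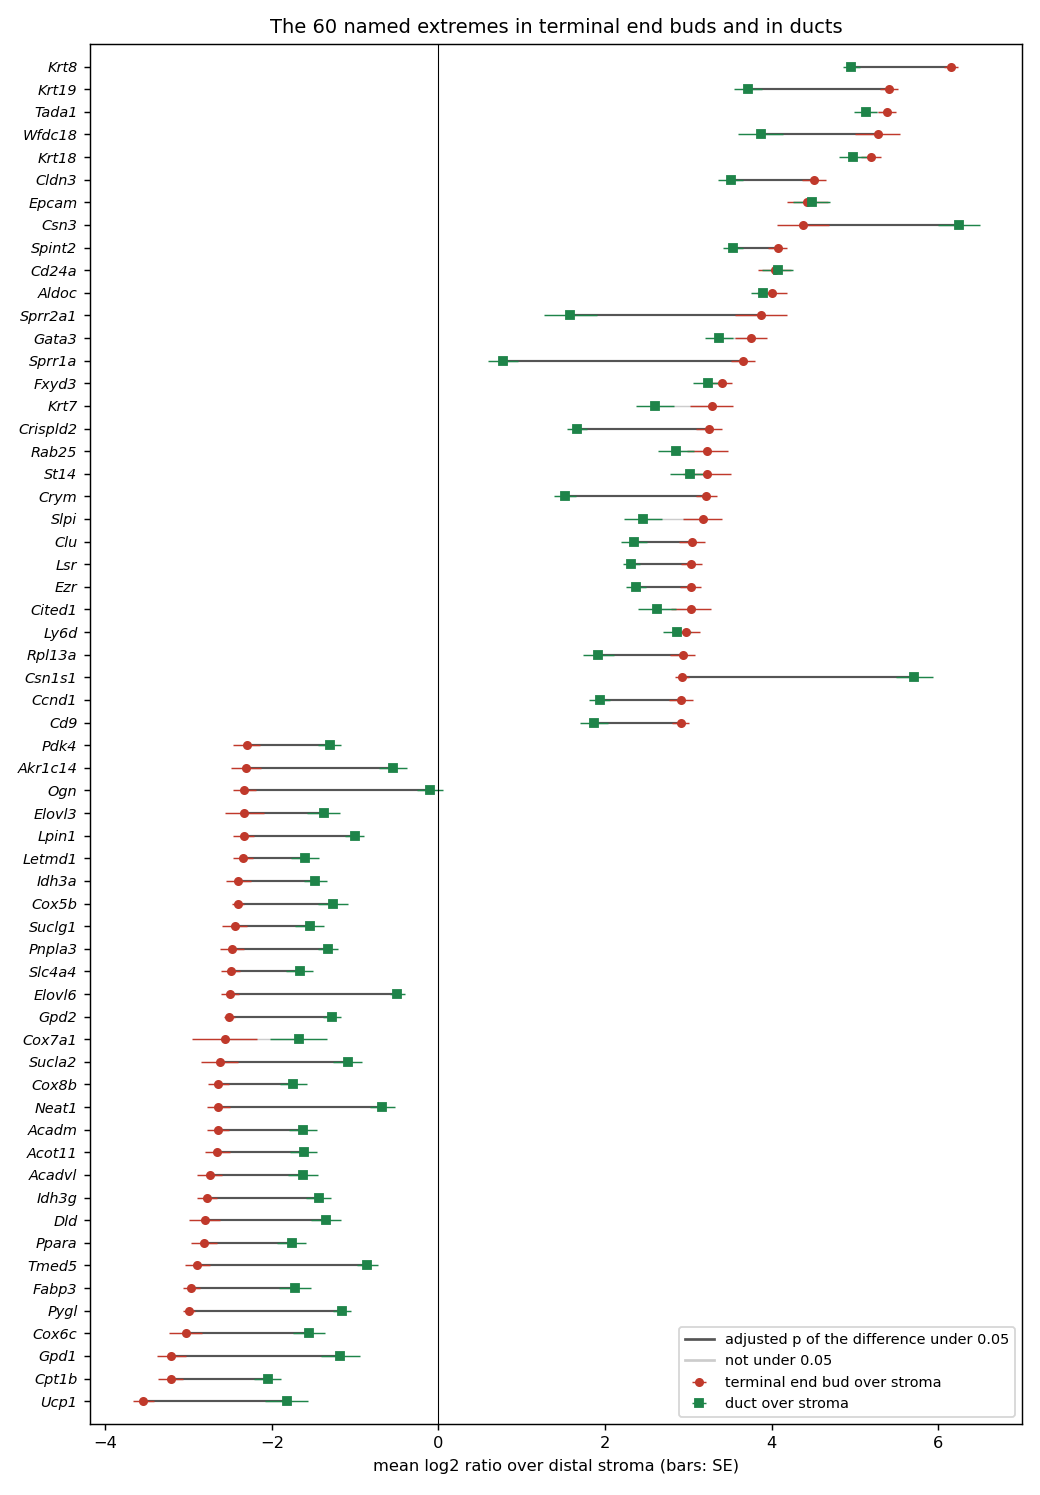
Mean log2 ratio over distal stroma (horizontal axis) in terminal end buds (red circles) and ducts (green squares), 6 arrays each, for the 30 highest and 30 lowest genes of terminal end buds. Dark connecting lines mark differences with an adjusted p under 0.05 in the fit over 12 arrays. All 30 lowest genes lie further below 0 in terminal end buds than in ducts, 29 of them past that threshold.

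The extremes were then set against ducts, with terminal end bud minus duct fitted over 12 arrays that share their reference tissue. The ratios were wider in terminal end buds as a whole, with an SD over probes of 0.535 to 0.635 on their arrays against 0.38 to 0.484 on those of ducts. Bringing all arrays to a common median absolute deviation left 836 genes above ducts and 1186 below, and quantile normalization left 779 and 970, against 1176 and 1455. Of the 30 highest genes 17 differed, 15 with the larger ratio in terminal end buds and 2 with the smaller. Krt8 differed by 1.2 (SE 0.15), from 4.96 (SE 0.11) in ducts, but by 0.13 at a common median absolute deviation (limma adjusted p = 0.833), while Krt18 (0.21 (SE 0.24), adjusted p = 0.63), Epcam (-0.05 (SE 0.31), adjusted p = 0.936) and Gata3 (0.38 (SE 0.24), adjusted p = 0.325) did not pass the test. Of the 30 lowest genes 29 differed, all lower in terminal end buds, among them Ucp1 by -1.73 (SE 0.36). At a common median absolute deviation 12 of the 30 lowest and 6 of the 30 highest genes differed (4 above and 2 below), and after quantile normalization 6 and 13. Ucp1 was then at -1.19 and -0.72 and did not pass the test (limma adjusted p = 0.0649 and 0.187). These genes were chosen as extremes of terminal end buds, which by itself favours a larger ratio there.

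Basal genes split, 4 above ducts and 8 below, with Krt14 differing by -1.28 (SE 0.22) and Myh11 by -2.16 (SE 0.17), the latter from 2.21 (SE 0.12) in ducts. After quantile normalization 2 basal genes were above ducts and 9 below, and at a common median absolute deviation 2 and 10. Krt5 differed by 0.02 (SE 0.18) and did not pass the test (adjusted p = 0.967). Endothelial genes were below ducts in 19 of 30 and above in 1, with Pecam1 differing by -1.24 (SE 0.14). White adipocyte genes had a median of -0.50 in ducts and were below ducts in 15 of 26. After quantile normalization 2 of them were below ducts, and at a common median absolute deviation 11. Respiratory chain genes, at -0.80 in ducts, were below in 13 of 45, and in 2 after quantile normalization or 5 at a common median absolute deviation. Endothelial genes stayed below in 11 and 17 under these settings. Ribosomal protein genes differed little as a list, 6 above and 4 below (2 and 6 after quantile normalization), with medians of 0.73 in terminal end buds and 0.83 in ducts.

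Single genes of matrix and signalling stood further apart. Timp1 was at 0.51 (SE 0.18) in ducts, a difference of 2.26 (SE 0.25). Ogn was at -0.10 (SE 0.15) and Sema3c at 0.06 (SE 0.13) in ducts, neither called there, with differences of -2.23 (SE 0.22) and -2.28 (SE 0.18). Etv5 was at 0.63 (SE 0.13) in ducts and differed by 1.74 (SE 0.18), while its upstream receptor Fgfr2 was at 2.36 (SE 0.12) and did not pass the test (0.12 (SE 0.17), adjusted p = 0.717).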

How the data were processed

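RNA of terminal end buds (Cy5) and of distal stroma (Cy3) was hybridised to 6 two-colour arrays, and 6 further arrays held ducts in Cy5. The authors deposited a table of normalized log ratios, read here as log2 ratios. No source used here gives its scale, normalization and filters. Its centring was seen in the medians of the 6 arrays, from 0.01 to 0.02, and the direction, Cy5 over Cy3, follows from the labels and the epithelial markers. Absolute levels and depth are not used here. Gene names came from the platform annotation: 14136 of 17589 probes had 1 symbol, 13 several and 3440 none, and 14029 matched RefSeq with 0 updated. For genes with several probes, the probe with most values, then the first in the table, was kept. Of 998 such genes, 22 had probes called in opposite directions.

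With limma 3.58.1 (R 4.3.3) an intercept was fitted to the 6 arrays for each of 17589 probes with at least 4 values, all of them passing (98 had a missing value). Adjusted p-values are Benjamini-Hochberg over all probes, with a threshold of 0.05. The SE is that of the moderated fit. The difference from ducts came from a fit over both groups. The 4 markers, the 30 highest and 30 lowest genes with the same sign on all 6 arrays, up to 6 list members per direction with the largest change, genes of the pairs, the 12 most variable genes and a fixed set of cell type genes could be named; other named genes were chosen after their values were seen. Of the fixed set, Cd68, Ptprc and Gfra1 are not described above. The members and lists were chosen with earlier results of these data known. The code was tested on simulated data.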

Additional observations from a re-analysis of the deposited data

Results flagged for a closer look

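Among the named genes, a single array lay far from the other 5 by Dixon's test for 16 of the 220 genes examined (7.27%), where chance gives about 1 in 20. Array 3 was far below the others for Aldh1a3 (-2.18), Car3 (-0.31) and Ccnb2 (-1.32). Array 1 departed for Mylk (0.10) and Pgr (0.032), and array 2 for Igf1 (-0.81). Array 4 departed for Cdh1 (2.73), Dusp1 (-0.99) and Ran (2.06), and array 6 for Cox7a1 (-0.25). Array 5 departed for Boc (0.54), Cpt1a (0.24), Dhh (1.91), Prss23 (-1.68), Rrm2 (1.39) and Sprr1a (4.47). Of the list medians, that of interferon genes was low on array 5 (-0.65) and that of nerve and Schwann cell genes was high on array 4 (0.20).

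The ratio over stroma differed between terminal end buds and ducts, by the limma fit over 12 arrays, for 15 of the named genes compared. It was larger in terminal end buds for Sprr1a (difference 2.88), Timp1 (2.26), Cdc20 (2.13), Etv5 (1.74), Mcm6 (1.42) and Krt8 (1.2). It was smaller for Csn1s2a (-3.96), Csn1s1 (-2.78), Sema3c (-2.28), Ogn (-2.23), Myh11 (-2.16), Csn3 (-1.87), Ucp1 (-1.73), Krt14 (-1.28) and Pecam1 (-1.24). Krt18, Epcam, Gata3, Krt5 and Fgfr2 did not pass that test. Of all genes 9.11% lay above ducts and 11.3% below. At a common median absolute deviation Krt8 and Ucp1 did not pass (limma adjusted p = 0.833 and 0.0649), nor did Ucp1 after quantile normalization (limma adjusted p = 0.187). Some of the genes were chosen as extremes of terminal end buds.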

How the results depend on the processing

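The counts of probes called higher and lower stayed within 1.5 times under every alternative run, and those at least 2-fold did so with 2 exceptions. As natural logarithms the 2-fold counts became 1208 probes higher and 1117 lower, and testing against a 2-fold ratio with limma's treat left 234 and 218, against 656 and 605. Leaving out 1 array gave 3245 to 3641 probes higher, 2760 to 3116 lower, 612 to 681 at least 2-fold higher and 576 to 627 at least 2-fold lower. The difference from ducts was called for 2631 genes, for 1749 after quantile normalization, for 2022 at a common median absolute deviation and for 2206 to 2685 without 1 array. Centring each array on its median gave 3637 probes higher and 3527 lower. Setting the single departing values to missing, which was chosen after seeing the data, gave 3883 and 3349. Of the member counts of lists, 34 (the main direction of lists with at least 5 genes called that way) were recomputed under 15 alternatives, and 0 of 510 values moved by over 1.5 times. Aldh1a3, which was not called, ranged from -0.197 to 0.348 without 1 array and was called higher, at 0.348, without array 3 or with its departing value missing, and Lipe changed sign to -0.76 as the mean of its probes; such a mean was 2.30 for Csn3 and -1.46 for Sema3c. Each ratio sets epithelial structure against stroma on the same array, so the test of the ratio already compares them within arrays. Terminal end bud and duct arrays were not paired with each other in the fit over 12 arrays. Each has its own slide number, and no label says that neighbouring slides belong together. Whether the arrays were paired in the experiment is therefore not known, and that fit would leave such a pairing out. The lack of a dye swap and of separate stromal samples, the unstated base of the logarithm and the unknown signal over background of each probe limit all values.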

Other observations

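Genes of other lists gave values that stand in no comparison above. Of 22 measured S100 proteins and annexins, calcium-binding proteins, 7 were higher and 6 lower. S100a6 was at 2.38 (SE 0.25) and S100a14 at 1.24 (SE 0.16), while S100a13 was at -1.58 (SE 0.09). Pentose phosphate, nucleotide and related one-carbon genes had a median of -0.01, with 9 of 28 higher and 8 lower. Of all genes 23.5% were called higher and 20.1% lower. The pentose enzymes Tkt, Pgd and Taldo1 were lower at -1.37 (SE 0.17), -1.58 (SE 0.12) and -1.41 (SE 0.14), and the serine and folate enzymes Psat1, Mthfd2 and Shmt2 were higher at 0.85 (SE 0.10), 0.83 (SE 0.10) and 0.81 (SE 0.07). Sterol genes were lower in 6 of 17 and higher in 2, with the regulator Srebf2 at 1.08 (SE 0.08) and Fdft1, squalene synthase, at -1.05 (SE 0.14).

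Proteasome genes had a median of 0.03, with 11 of 36 higher and 9 lower, beside 23.5% and 20.1% of all genes. The immunoproteasome subunit Psmb8 was at 1.02 (SE 0.15). Of 14 mast cell and granulocyte genes 1 was higher and 4 lower. The long noncoding RNA Neat1, which scaffolds nuclear paraspeckles, was among the 30 lowest genes, from -3.20 over -2.46 to -2.29, with a mean of -2.64 (SE 0.14).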
